A study of Mus musculus with 12 samples.

Results

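Cortical projection neurons are the glutamatergic cells that carry signals out of and between areas of the cerebral cortex, and they settle in layers that are told apart by the transcription factors and signalling genes they keep expressing. Upper-layer cells project mainly within the cortex, whereas deep-layer cells project mainly to subcortical targets such as the thalamus, the brainstem and the spinal cord. Occlusion of the middle cerebral artery deprives the lateral cortex and the striatum of blood, so the cells that express these genes lie partly within the affected territory. Of the 49315 genes in the count table, 9 genes of this kind were examined, chosen by name. They are 3 upper-layer genes (*Cux2*, *Rasgrf2* and *Rorb*), 4 deep-layer genes (*Fezf2*, *Bcl11b*, *Foxp2* and *Tbr1*) and 2 genes used by projection neurons of all layers (*Neurod6* and *Slc17a7*).

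Brains had been taken 14 d after stroke from 12 mice, and the data are their bulk RNA-sequencing read counts. All recipients were male CD45.1 Pep Boy mice with intact *Tet2*, aged 8 to 12 weeks at irradiation, whose heads were shielded. They received bone marrow (BM) in which CD45.2 cells made up 10% and CD45.1 cells with intact *Tet2* the other 90%, and later underwent 30 min of middle cerebral artery occlusion. In the WT group (n = 6) the CD45.2 donors were *Tet2*+/+, and in the *Tet2*-KO group (n = 6) they were *Tet2*-/-. The genotype therefore differed only in a share of the transplanted blood-forming cells, and the neurons of both groups were those of the recipient. The study describes the sequenced tissue as whole brains in one place and as hemispheres of the whole brain in another, and either includes many regions beside the cortex. The treatment entry of the *Tet2*-KO samples names control cells, and the groups were taken from the titles.

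The library of a WT mouse held 12000261 to 15340787 counts and that of a *Tet2*-KO mouse 12625047 to 21049763. Mean *Tet2* levels of 132 CPM (WT) and 131 CPM (*Tet2*-KO) do not check the labels, because the tissue belongs to the recipients. WT replicate 2 stood apart, with the lowest level of 8 of the 9 layer genes among all 12 mice, and *Tet2*-KO replicate 5 had the lowest level of its group for 5 of them. For the layer genes, counts that these mice moved are given with and without them, and for other lists only in part. Levels in CPM are counts relative to a TMM-normalized library total, and RPKM are CPM divided by the exon length in kilobases. Log2 fold changes set *Tet2*-KO against WT and come from the quasi-likelihood test of edgeR on 20290 genes.

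All 9 layer genes had a higher mean level in the *Tet2*-KO group, by 5.30% for *Foxp2* to 30.9% for *Slc17a7*. None of the 9 passed an adjusted p of 0.05 over all genes tested. Of all genes tested 0.0246% passed it, which is 5 genes, all of them lower. An unadjusted p under 0.05 was reached by 6 of the 9, all in the higher direction, where 10.8% of the tested genes did so and 23.1% in either direction. Of all genes tested, 52.3% were higher at any p. The median log2 fold change of the 9 genes was 0.24, and that of all genes was 0.01. In bulk tissue, fewer cells of a type and less RNA per cell cannot be told apart.

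*Cux2* (ENSMUSG00000042589, chr5:121856366-122050102 in GRCm38, minus strand) encodes a homeodomain transcription factor of layers 2 to 4 that shapes dendrites and synapses. Its level in the WT mice was 88.4 CPM in the lowest, 109 in the median and 116 in the highest, and in the *Tet2*-KO mice 104, 129.7 and 160.4 CPM. The groups overlapped, with 4 of the 6 *Tet2*-KO mice above every WT mouse and *Tet2*-KO replicates 4 and 5 within the WT range. The means were 108 ± 10.05 and 129 ± 21.4 CPM (SD, n = 6), which is a log2 difference of 0.26 (standard error 0.10, edgeR unadjusted p = 0.0236, adjusted p = 0.163).

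*Rasgrf2* (ENSMUSG00000021708, chr13:91880400-92131656, minus strand) encodes a calcium-regulated exchange factor for Ras and Rac and marks layer 2/3. The lowest, median and highest WT mice were at 154, 188 and 195 CPM, and the *Tet2*-KO mice at 179.8, 202 and 252 CPM. *Tet2*-KO replicates 1 and 6 were the highest, and 4 of 6 lay above every WT mouse. Its fold change on the log2 scale was 0.24 (standard error 0.09, edgeR unadjusted p = 0.0151, adjusted p = 0.146).

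*Rorb* (ENSMUSG00000036192, chr19:18930605-19111196, minus strand) encodes a nuclear receptor that marks layer 4 and is also used in the thalamus and the retina. WT mice ranged from 96.7 to 115 CPM with a median of 104 CPM, and *Tet2*-KO mice from 109 to 149 CPM with a median of 120.1 CPM. The separation was the clearest of the 9 genes by count, with 5 of 6 *Tet2*-KO mice above every WT mouse, all 6 above the WT mean, and *Tet2*-KO replicate 5 alone within the WT range. Over all genes tested, 1.09% had groups that did not overlap, and no layer gene was among them. Its log2 fold change was 0.26 (standard error 0.08, edgeR unadjusted p = 0.00367, adjusted p = 0.121), the smallest p of the 9.

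Among the deep-layer genes, *Tbr1* (ENSMUSG00000035033, chr2:61802930-61814114, plus strand) encodes a T-box factor that specifies corticothalamic neurons of layer 6 and is found in other glutamatergic neurons of the forebrain. WT mice were at 65.6 CPM in the lowest, 89.8 in the median and 97.0 in the highest, against 89.2, 119 and 133 CPM in the *Tet2*-KO mice. All 6 *Tet2*-KO mice lay above the WT mean of 87.2 CPM and 4 lay above every WT mouse, while replicates 4 and 5 were close to the WT median. The *Tet2*-KO mean was 113 ± 19.8 CPM (SD, n = 6), for a log2 difference of 0.38 (standard error 0.12, edgeR unadjusted p = 0.00792, adjusted p = 0.128).

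*Bcl11b* (ENSMUSG00000048251, chr12:107910403-108003602, minus strand), also known as Ctip2, encodes a zinc finger factor of corticospinal neurons in layer 5 that striatal projection neurons and T cells express as well. It was at 76.0 to 114 CPM in WT mice, with a median of 100.1 CPM, and at 95.6 to 132 CPM in *Tet2*-KO mice, with a median of 120.2 CPM. The overlap was made by *Tet2*-KO replicates 4 and 5, and the other 4 lay above every WT mouse. The log2 fold change of 0.21 had a standard error of 0.10 (edgeR unadjusted p = 0.0435, adjusted p = 0.204).

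*Fezf2* (ENSMUSG00000021743, chr14:12342094-12348189, minus strand) encodes the zinc finger factor that selects the subcerebral fate and acts upstream of *Bcl11b*. WT mice ranged from 15.4 to 29.4 CPM (median 24.8 CPM) and *Tet2*-KO mice from 22.4 to 32.9 CPM (median 27.6 CPM). Only *Tet2*-KO replicate 3 lay above every WT mouse, and the log2 difference between the groups was 0.15 (standard error 0.14, edgeR unadjusted p = 0.281). Without WT replicate 2, which at 15.4 CPM was the lowest of all mice, it was 0.05.

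*Foxp2* (ENSMUSG00000029563, chr6:14901349-15441977, plus strand) encodes a forkhead factor that marks layer 6 in the cortex and is used in striatum, thalamus and Purkinje cells. Its 6 WT mice lay between 34.6 and 45.1 CPM and its 6 *Tet2*-KO mice between 35.2 and 47.3 CPM, so the groups overlapped almost throughout. The order of the mice was unlike that of the other genes, with *Tet2*-KO replicate 3, the highest for 4 of the other members, the lowest of its group and WT replicate 2 not low. A log2 fold change of 0.07 resulted (standard error 0.08, edgeR unadjusted p = 0.356), which was 0.03 without *Tet2*-KO replicate 1 and 0.12 without replicate 3.

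*Slc17a7* (ENSMUSG00000070570, chr7:45163949-45176142, plus strand) encodes VGLUT1, the transporter that loads glutamate into synaptic vesicles of cortical and hippocampal neurons. WT replicate 2 was at 381 CPM, and the other 5 WT mice were at 634 to 674 CPM. The *Tet2*-KO mice were at 599 CPM in the lowest, 824 in the median and 1012 in the highest, with replicates 4 and 5 the lowest pair and the other 4 above every WT mouse. The log2 fold change, the largest of the 9, was 0.39 (standard error 0.15, edgeR unadjusted p = 0.0249, adjusted p = 0.167), and 0.28 without WT replicate 2.

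*Neurod6* (ENSMUSG00000037984, chr6:55677822-55681263, minus strand), a basic helix-loop-helix factor of cortical and hippocampal projection neurons, varied most between mice. WT mice were at 19.9 to 55.9 CPM (median 51.4 CPM) and *Tet2*-KO mice at 30.2 to 61.5 CPM (median 54.2 CPM). The lowest mouse was WT replicate 2, followed by *Tet2*-KO replicate 4. Its log2 fold change was 0.15 (standard error 0.25, edgeR unadjusted p = 0.566), and the sign turned to -0.01 without WT replicate 2.

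**Figure D1:**
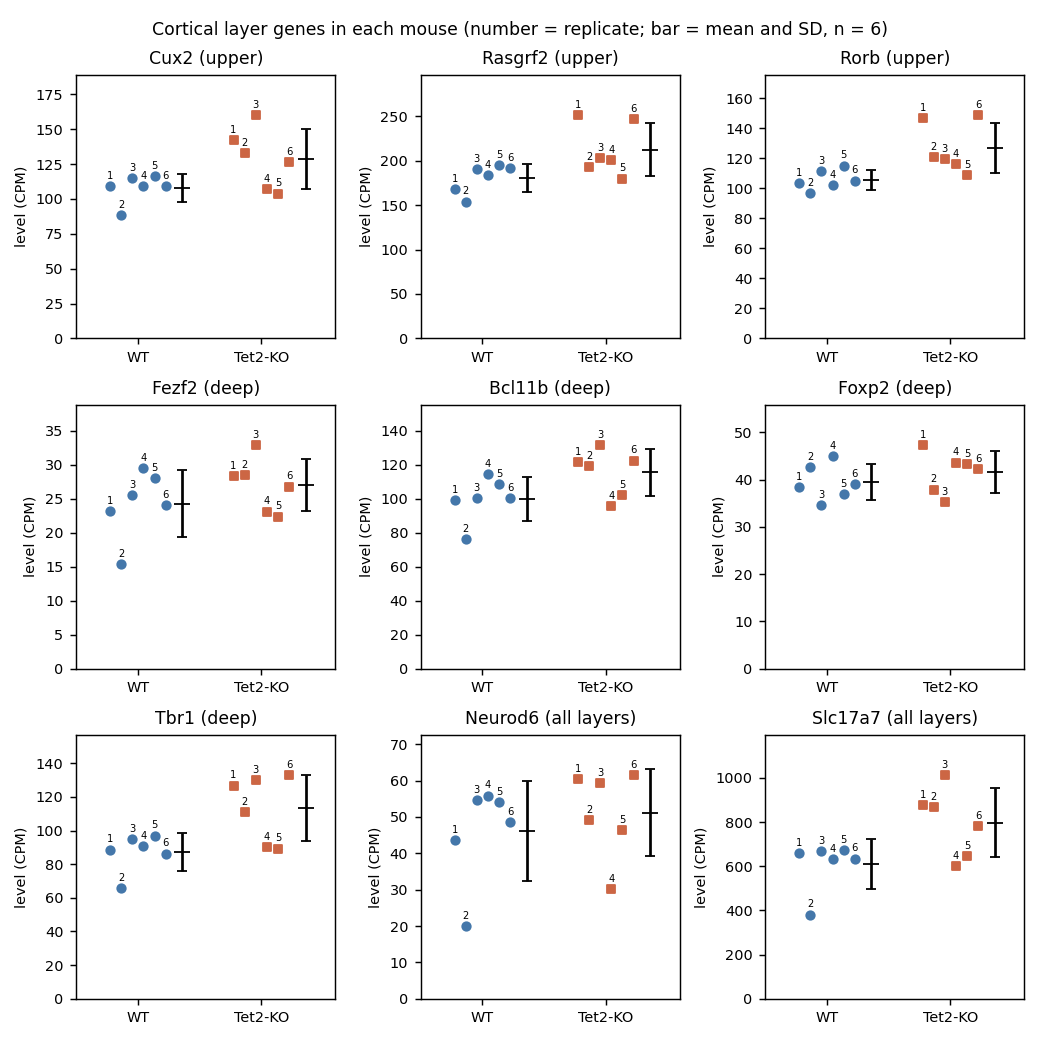
Level of each of the 9 layer genes in CPM (vertical axis, from 0) in the WT and the *Tet2*-KO mice, where each point is a mouse with its replicate number and the bar is the mean with SD (n = 6). WT replicate 2 was the lowest of all mice for every gene but *Foxp2*, and *Tet2*-KO replicates 4 and 5 lay with the WT mice for most genes.

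Per length, the group means of the members had the same order in both groups. *Slc17a7* was highest, with 113 ± 20.9 RPKM for WT and 148 ± 28.8 RPKM for *Tet2*-KO mice (SD, n = 6), above every other member in every mouse. *Neurod6* followed at 21.5 RPKM in the WT group, then *Rasgrf2* at 19.6 and *Tbr1* at 15.9 RPKM. Below these came *Bcl11b* at 12.3, *Cux2* at 10.7, *Rorb* at 9.54 and *Fezf2* at 7.96 RPKM. Neighbours from *Neurod6* down to *Fezf2* had overlapping ranges over the WT mice. *Foxp2* was lowest at 2.42 RPKM in the WT group and 2.55 RPKM in the *Tet2*-KO group, with no mouse reaching the range of *Fezf2*. Single mice departed from this order, such as WT replicate 2 and *Tet2*-KO replicate 4, in which *Neurod6* lay below both *Rasgrf2* and *Tbr1*. In the *Tet2*-KO group *Tbr1* and *Bcl11b* in addition did not overlap.

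The comparison of upper with deep layers was made within each mouse, as the mean log2 CPM of the 3 upper-layer genes minus that of the 4 deep-layer genes. In the WT group the difference was 1.25 ± 0.10 log2 units (SD, n = 6), from 1.06 in replicate 4 to 1.36 in replicate 2, and in the *Tet2*-KO group 1.29 ± 0.06 (SD, n = 6), from 1.22 to 1.36. The ranges overlapped almost throughout. The group means differed by 0.04 log2 units with a standard error of 0.05, which is less than the spread between mice of a group of 0.09. Its sign turned when *Bcl11b* and *Foxp2*, which are also used outside the cortex, were left out of the deep genes (-0.03), and with the wider layer lists described below (-0.02). Taken alone, the mean of the upper-layer genes was higher by 0.24 log2 units in the *Tet2*-KO group (standard error 0.09) and that of the deep-layer genes by 0.21 (standard error 0.09). An unadjusted p under 0.05 was reached by 3 of 3 upper-layer genes and 2 of 4 deep-layer genes, all higher. Of all genes tested, 10.8% were higher with one and 23.1% had one in either direction. The difference between the classes was not tested.

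**Figure D2:**
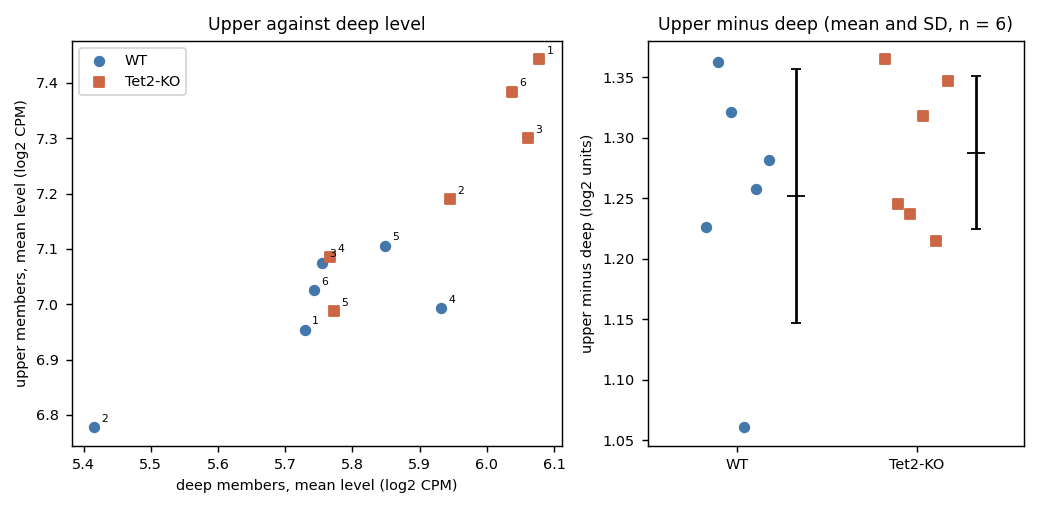
On the left, the mean log2 CPM of the 3 upper-layer genes (vertical axis) against that of the 4 deep-layer genes (horizontal axis), with 1 point per mouse and its replicate number. On the right, upper minus deep in log2 units for each mouse with the mean and SD of the group (n = 6), where the 6 *Tet2*-KO mice lie between 1.22 and 1.36 and the WT mice between 1.06 and 1.36 on an axis that does not start at 0.

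How the 9 genes varied together was described by the Pearson correlation of log2 CPM over the 12 mice. All genes share the difference between groups, the scaling of each library and the makeup of the tissue piece. WT replicate 2, the lowest of all mice for every gene but *Foxp2*, also enters each r, and none was computed without it. *Rasgrf2* and *Rorb* had r = 0.952, and 0.930 on deviations from the group means. *Fezf2* and *Bcl11b* had r = 0.941, and 0.959 on deviations from the group means. *Cux2* varied more closely with *Slc17a7* (r = 0.956), *Tbr1* (0.926) and *Bcl11b* (0.905) than with the other upper-layer genes *Rasgrf2* (0.698) and *Rorb* (0.695). High and low mice were therefore not sorted by layer, since a deep-layer gene could be closer to an upper-layer gene than 2 upper-layer genes were to each other. *Foxp2* had r between -0.267 and 0.225 with the other 8.

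The genes outside the list whose pattern over the 12 mice was most like a member were ranked by the same r over all genes tested. Picking the highest r of so many genes over 12 mice gives high values by selection alone. How high they would be without any relation was not computed, so the lists are descriptive. For *Slc17a7* they were *Rnf165* (0.990), *Camk2b* (0.988) and *Fam163b* (0.987). *Tbr1* was most like *Pclo*, *Sh3gl2* and *Rapgef4* (0.987, 0.985 and 0.985), of which *Pclo* encodes piccolo, a scaffold of the presynaptic active zone. *Bcl11b* was most like *Cck*, the gene of the neuropeptide cholecystokinin (0.987), and then *Celf5* and *Celf3* (0.983 and 0.981). *Cux2* went with *Phf24*, *Kcnh4* and *Slc2a3*, the neuronal glucose transporter GLUT3 (0.982, 0.981 and 0.973). For *Rasgrf2* the nearest were *Syt4*, *St8sia3* and *Prkar2b* (0.975, 0.974 and 0.970) and for *Rorb* they were *Arpp19*, *Slc2a13* and *Prkacb* (0.974, 0.969 and 0.965). *Neurod6* came closest to *Cttnbp2*, *Epha7* and *Galnt17* (0.973, 0.967 and 0.963), and *Fezf2* to *M5C1000I18Rik*, *Ripor2* and *Ankrd33b* (0.972, 0.958 and 0.949). The values were lowest for *Foxp2*, with *Gm27582*, *Ints8* and *Otoa* at 0.877, 0.838 and 0.824.

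The 250 bases before the RefSeq start site (GRCm38.p6) were read for 8 of the 9 genes, and no sequence is shown for *Foxp2*. Those of *Rasgrf2* and *Rorb*, whose levels varied together over the mice, and of *Tbr1* and *Slc17a7*, which had the largest fold changes, are printed 5′ to 3′ on the strand of the gene, with GC boxes and CCAAT boxes in capitals.
Rasgrf2, chr13:92131829-92132078, minus strand: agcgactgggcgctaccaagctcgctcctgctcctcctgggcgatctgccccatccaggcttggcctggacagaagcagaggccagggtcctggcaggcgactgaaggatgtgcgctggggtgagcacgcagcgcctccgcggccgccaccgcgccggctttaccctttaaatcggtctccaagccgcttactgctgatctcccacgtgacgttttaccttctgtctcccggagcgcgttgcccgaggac
Rorb, chr19:19111197-19111446, minus strand: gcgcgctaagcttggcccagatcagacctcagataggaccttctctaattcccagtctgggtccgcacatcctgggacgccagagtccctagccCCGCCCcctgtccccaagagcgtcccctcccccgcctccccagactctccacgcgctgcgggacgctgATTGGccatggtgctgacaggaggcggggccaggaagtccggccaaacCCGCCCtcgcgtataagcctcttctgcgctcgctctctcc
Tbr1, chr2:61804203-61804452, plus strand: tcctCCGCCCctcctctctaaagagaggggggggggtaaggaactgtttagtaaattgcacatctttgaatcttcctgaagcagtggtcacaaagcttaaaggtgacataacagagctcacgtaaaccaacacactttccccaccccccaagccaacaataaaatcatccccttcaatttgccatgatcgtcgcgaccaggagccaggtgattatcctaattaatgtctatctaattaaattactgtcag
Slc17a7, chr7:45163671-45163920, plus strand: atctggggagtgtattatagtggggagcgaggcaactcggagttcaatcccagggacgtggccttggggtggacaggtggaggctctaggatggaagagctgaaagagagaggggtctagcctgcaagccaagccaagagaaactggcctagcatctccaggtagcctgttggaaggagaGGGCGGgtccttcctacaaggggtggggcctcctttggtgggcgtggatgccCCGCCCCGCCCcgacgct
No motif was searched for the factor families of *Cux2*, *Fezf2* and *Bcl11b*. Motifs of other factor families that members encode were searched on both strands. They were the E-boxes CAGATG (present in 14.4% of 32851 promoters of the same length) and CAGCTG (13.0%) for NeuroD factors, AGGTCA (14.02%) for ROR receptors, TGTTTAC (3.17%) for forkhead factors and AGGTGTGA (1.12%) for T-box factors, and none of their letters occurred in any of the 8 windows. The general elements GGGCGG (GC box, 32.7% of promoters), CCAAT (33.8%) and TATAAA (12.4%) were added after that result had been seen. *Slc17a7* held 3 GC boxes, of which 2 share 1 base, *Rorb* 2 GC boxes and 1 CCAAT box, and *Tbr1* and *Fezf2* 1 GC box each. *Neurod6* held 1 CCAAT box, and *Rasgrf2*, *Cux2* and *Bcl11b* held none of these letters. The share of G and C bases was 65.2% in the window of *Rasgrf2*, 66.0% in that of *Rorb*, 45.2% in that of *Tbr1* and 61.2% in that of *Slc17a7*.

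Beyond the 9, 43 other layer and projection neuron genes were examined in 4 lists. None passed the adjusted p with all 12 mice in edgeR, while 17 had an unadjusted p under 0.05, beside 23.1% of all genes. Without *Tet2*-KO replicate 5, 12 of the 43 passed the adjusted p (10 higher, 2 lower), beside 11.0% of all genes. Without WT replicate 2 as well 9 did (7 higher, 2 lower), beside 7.59% of all genes. The DESeq2 Wald test called 8 (7 higher) and limma-voom 9 (7 higher), beside 7.22% and 9.92% of all genes. Of 10 genes shared by projection neurons of all layers, 10 were higher in the *Tet2*-KO group and 7 had an unadjusted p under 0.05, with a median log2 fold change of 0.30. Among them *Emx1*, a homeobox gene of the dorsal forebrain, averaged 4.50 ± 1.00 CPM in WT and 6.27 ± 0.97 CPM in the *Tet2*-KO group (SD, n = 6; log2 fold change 0.48, edgeR adjusted p = 0.124). *Slc30a3*, which encodes the vesicular zinc transporter ZnT3, was at 41.3 ± 6.44 and 57.4 ± 11.1 CPM (log2 fold change 0.48, edgeR adjusted p = 0.123). The most abundant of the list, *Camk2a*, the alpha subunit of the synaptic kinase CaMKII, was at 1644 ± 280.1 and 2045 ± 343 CPM (log2 fold change 0.32, edgeR adjusted p = 0.186). *Arpp21* was next at 375 ± 52.4 and 453 ± 68.0 CPM.

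The other genes of single layers did not all share this direction, and the counts of the upper-layer and layer 5 lists were near the 23.1% of all genes with an unadjusted p under 0.05 in either direction. In layer 6, 9 of 10 were higher and 4 of 10 had an unadjusted p under 0.05, namely *Cplx3*, *Rprm*, *Ntsr1* and *Sox5*, with a list median of 0.15. *Cplx3*, a complexin of subplate-derived neurons, was at 4.64 ± 0.83 and 6.498 ± 0.71 CPM, and 5 of 6 *Tet2*-KO mice lay above every WT mouse (log2 fold change 0.49, edgeR unadjusted p = 0.00145, adjusted p = 0.11). *Rprm* was at 15.4 ± 2.34 and 21.8 ± 5.18 CPM, also with 5 of 6 above every WT mouse. *Sox5*, a transcription factor that controls deep-layer identity, had a log2 fold change of 0.19, and *Tle4*, a corepressor of corticothalamic neurons and the most abundant gene of the list, one of 0.02.

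In layer 5, 8 of 13 were higher, 1 of 13 was higher with an unadjusted p under 0.05 (*Ldb2*) and 2 were lower with one (*Parm1* and *Npr3*), with a median of 0.04. *Parm1* was at 109 ± 5.53 CPM in the WT and 90.03 ± 4.01 CPM in the *Tet2*-KO group (SD, n = 6), and every *Tet2*-KO mouse lay below every WT mouse. Its log2 fold change was -0.27 (standard error 0.05, edgeR unadjusted p = 2.67e-05, adjusted p = 0.0752). *Npr3*, the clearance receptor of natriuretic peptides, was at a log2 fold change of -0.30 (adjusted p = 0.135 by edgeR), and 4 of the 6 *Tet2*-KO mice were lower than any WT mouse.

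Of the 10 other upper-layer genes, 6 were higher, 2 had an unadjusted p under 0.05 in the higher direction (*Unc5d* and *Otof*) and 1 in the lower (*Stard8*), with a median of 0.03. *Unc5d*, a netrin receptor of layer 4 cells, was at 55.1 ± 4.40 and 68.6 ± 7.91 CPM, with 5 of 6 *Tet2*-KO mice above every WT mouse (log2 fold change 0.32, edgeR unadjusted p = 0.000831, adjusted p = 0.11). *Cux1*, the paralog of *Cux2*, differed by -0.09 on the log2 scale (standard error 0.05, edgeR unadjusted p = 0.0726), from 179 ± 13.1 to 168 ± 2.42 CPM. *Cux1* is also expressed outside neurons. *Pou3f3*, a POU factor of upper-layer neurons, had a log2 fold change of 0.03.

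**Figure D3:**
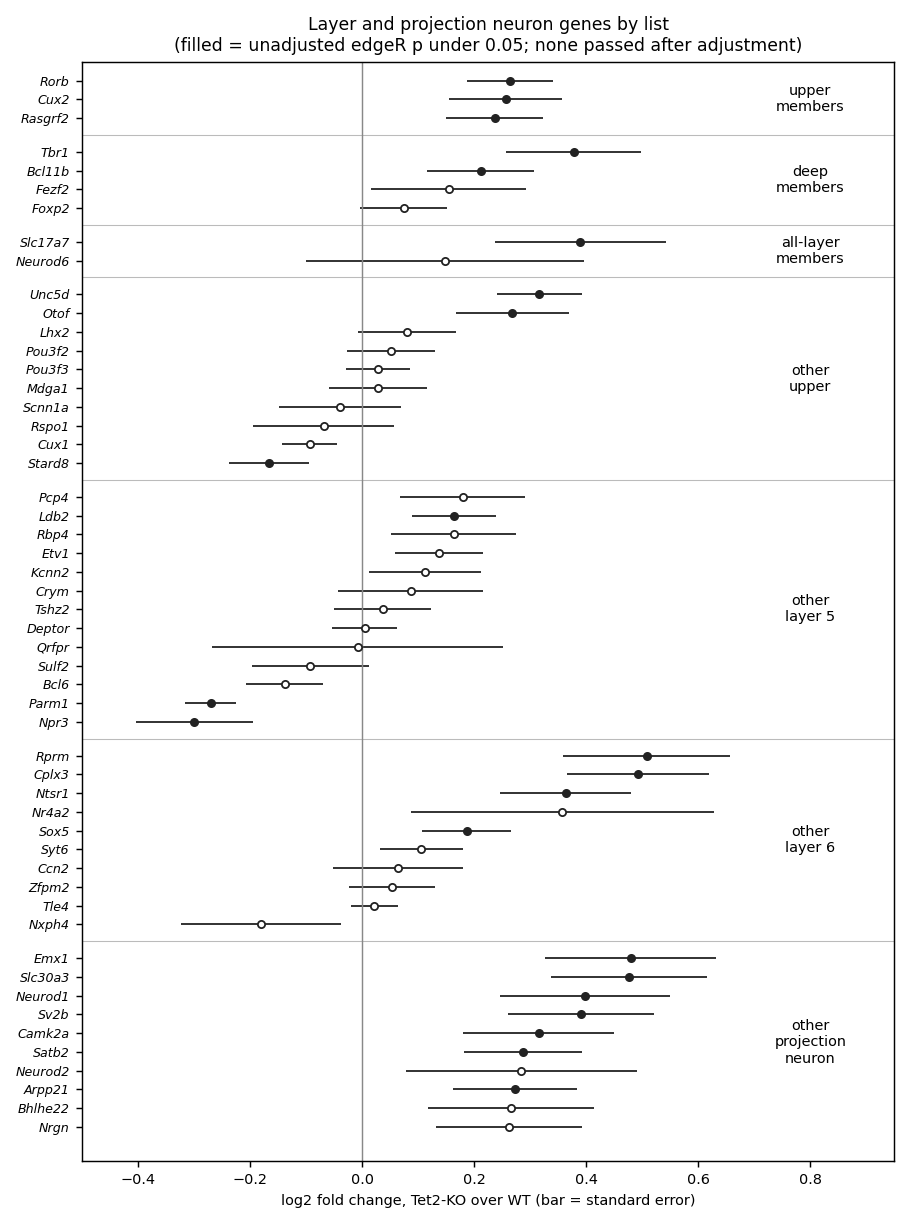
Log2 fold change of *Tet2*-KO over WT with its standard error (horizontal axis) for the 9 layer genes and the 43 other layer and projection neuron genes, grouped by list and ordered within it. Filled points had an unadjusted edgeR p under 0.05, which holds for 6 of the 9 layer genes and 7 of 10 other projection neuron genes, beside 3 of 10 other upper-layer, 3 of 13 layer 5 and 4 of 10 layer 6 genes and 23.1% of all genes tested.

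Markers of all neurons and of other kinds of neuron were measured beside the layer genes. The pan-neuronal markers are expressed by cortical projection neurons as well, so they are no measure of other neurons alone. Of 12 pan-neuronal markers, 11 were higher in the *Tet2*-KO group and 9 had an unadjusted p under 0.05, with a median log2 fold change of 0.21. *Rbfox3*, which encodes the nuclear antigen NeuN, was at 160.1 ± 17.6 and 199 ± 26.5 CPM (log2 fold change 0.31, edgeR adjusted p = 0.121), and *Stmn2*, *Snap25* and *Map2* had log2 fold changes of 0.24, 0.25 and 0.21. Of 8 inhibitory neuron markers, 7 were higher and 5 had an unadjusted p under 0.05, with the same median of 0.21. That count was 3 when WT replicate 1, WT replicate 2, *Tet2*-KO replicate 1 or *Tet2*-KO replicate 3 was left out. Over all genes, such a p was found for 4678 with all 12 mice and for 3130 to 4011 in these fits. No marker of these 2 lists passed the adjusted threshold with all 12 mice in edgeR. Without *Tet2*-KO replicate 5, 5 of 12 pan-neuronal and 3 of 8 inhibitory markers did, all higher, beside 3.70% of all genes. The DESeq2 Wald test called 4 and 3 and limma-voom 5 and 3, all higher, beside 2.60% and 2.91% of all genes. *Vip*, the neuropeptide of a class of cortical interneurons, was at 7.76 ± 1.24 and 10.7 ± 0.62 CPM (SD, n = 6), and all 6 *Tet2*-KO mice lay above every WT mouse (log2 fold change 0.46, edgeR unadjusted p = 0.000506, adjusted p = 0.11). *Npy* was at 31.6 ± 4.19 and 43.9 ± 7.01 CPM. *Gad1* and *Gad2*, the enzymes that make GABA, had log2 fold changes of 0.17 and 0.12.

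Markers of striatum, thalamus, hippocampus and olfactory bulb had smaller medians. The 11 striatal projection neuron markers had a median log2 fold change of 0.09, with an unadjusted p under 0.05 for *Drd1* alone, the dopamine D1 receptor (log2 fold change 0.24). Without *Tet2*-KO replicate 5 that count was 6 of 11, with 3 past the adjusted threshold, all higher, beside 3.70% of all genes. Without WT replicate 2 as well the count was 7 of 11, again with 3, where 7.59% of all genes passed in either direction. It was 2 without WT replicate 2 alone and 0 without *Tet2*-KO replicate 1 or 3. Over all genes, 3130, 3629 and 3669 had an unadjusted p under 0.05 in these fits, in that order. Of 7 thalamus markers, *Rora* was higher (log2 fold change 0.19) and *Prkcd* lower (-0.20) with an unadjusted p under 0.05, and the median was 0.08. Of 7 hippocampus markers, *Wfs1* alone had one (log2 fold change 0.27), and *Prox1*, which marks dentate granule cells, had a log2 fold change of 0.005. The 4 tested olfactory bulb markers had a median of -0.11. The 4 tested cerebellum markers had a median of 0.81 with none at an unadjusted p under 0.05 with all mice, and the 5 listed ones summed to 48.4 and 67.8 CPM in *Tet2*-KO replicates 2 and 4 and to 11.1 to 21.2 CPM in the other 10 mice. The part of this difference in the layer genes was not tested.

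Each layer gene was also set against the mean log2 CPM of the pan-neuronal markers in the same mouse, which itself was higher by 0.20 log2 units in the *Tet2*-KO group (standard error 0.08). On this scale the median over the 9 genes of the *Tet2*-KO minus WT difference was 0.03 log2 units, beside 0.24 without it. Because projection neurons express the pan-neuronal markers too, a smaller difference on this scale is partly built in. *Tbr1* stayed higher by 0.17 (standard error 0.07), with 6 of 6 *Tet2*-KO mice above the WT mean and 4 of 6 above every WT mouse. *Slc17a7* was higher by 0.20 (standard error 0.11), with 5 of 6 above the WT mean. The upper-layer genes *Cux2*, *Rasgrf2* and *Rorb* differed by 0.05, 0.03 and 0.06, each with a standard error of 0.06. *Bcl11b* differed by 0.02, *Neurod6* by -0.01, *Fezf2* by -0.03 and *Foxp2* by -0.12 (standard error 0.13), all within the spread between mice. No p is given for these differences, since the genes were chosen with results known.

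Markers of cells that gather in the lesion were lower in the group with the higher layer genes. The 7 lesion phagocyte markers (*Cd68*, *Clec7a*, *Gpnmb*, *Itgax*, *Lgals3*, *Lyz2* and *Spp1*) were lower in the *Tet2*-KO group in 7 of 7, with a median log2 fold change of -1.67. An unadjusted p under 0.05 was found in 6 of 7, where 12.2% of all genes were lower with one. Without WT replicate 2 that count was 2 of 7, and without *Tet2*-KO replicate 5 it was 7 of 7. Over all genes, 4678 had such a p in either direction with all 12 mice and 3130 without WT replicate 2. The number was 5386 without *Tet2*-KO replicate 4 and 5744 without *Tet2*-KO replicate 5. In the last of these fits 6 of 7 passed the adjusted threshold, where 11.0% of all genes passed. The DESeq2 Wald test put 2 of 7 past that threshold and limma-voom 7 of 7, beside 7.22% and 9.92% of all genes. Summed, the 7 markers were at 1094 to 2850 CPM in the WT mice and at 71.1 to 1599 CPM in the *Tet2*-KO mice. The highest was WT replicate 2, the mouse lowest in 8 layer genes, and the highest *Tet2*-KO mouse was replicate 5. Of the reactive astrocyte markers 5 of 5 were lower, 2 with an unadjusted p under 0.05 (*Cd44* and *Lcn2*), a count that was 0 without WT replicate 2, 1 without *Tet2*-KO replicate 2 and 4 without *Tet2*-KO replicate 4. Their sum was 1185 to 3091 CPM in WT and 485 to 2129 CPM in *Tet2*-KO mice. The 6 microglia markers had a median of -0.25 with none at an unadjusted p under 0.05, and 2 without *Tet2*-KO replicate 4 or 5. The 6 oligodendrocyte markers had a median of 0.01, again with none, and the 6 astrocyte markers one of 0.01 with *Slc1a2* alone (log2 fold change 0.13), and none had one in 8 of the 12 fits that left out 1 mouse. Of 4 endothelial markers, *Cldn5* alone had an unadjusted p under 0.05 (log2 fold change -0.45), and 2 did without *Tet2*-KO replicate 5. The part of these cells in the levels of the layer genes was not tested.

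**Figure D4:**
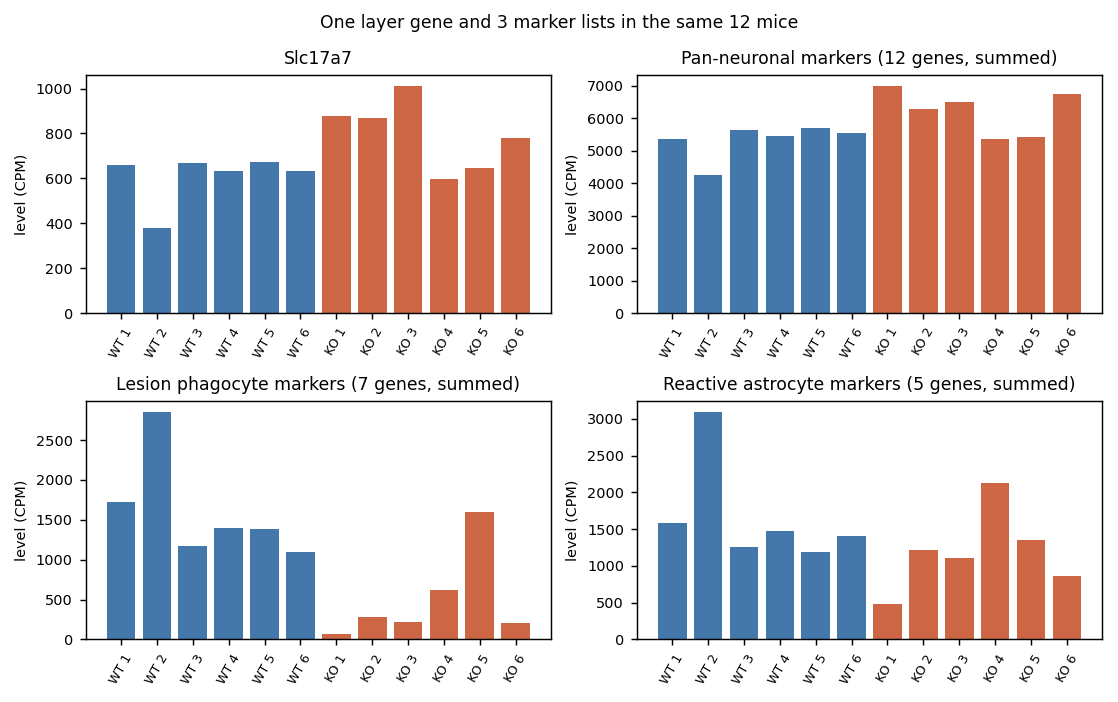
Levels in CPM (vertical axes, from 0) of *Slc17a7* and of the summed pan-neuronal, lesion phagocyte and reactive astrocyte markers in each of the 12 mice, WT in blue and *Tet2*-KO in orange. WT replicate 2 had the lowest *Slc17a7* (381 CPM) and pan-neuronal sum (4267 CPM) and the highest lesion phagocyte (2850 CPM) and reactive astrocyte sums (3091 CPM).

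Other tests and the loss of 1 mouse changed how many of the 9 genes passed after adjustment. On the same genes, the DESeq2 Wald test called *Rorb* and *Tbr1* (adjusted p = 0.0268 and 0.0289), where 2.60% of all genes passed in the higher direction and 7.22% in either. The limma-voom test with sample quality weights called the same 2 (adjusted p = 0.0412 and 0.0318), where 2.91% passed in the higher direction and 9.92% in either. DESeq2 on all genes with a count, chosen after the data had been seen, called none of the 9, with adjusted p = 0.0522 for *Rorb*, where 0.523% passed in the higher direction and 2.39% in either. Without *Tet2*-KO replicate 5, *Rorb*, *Tbr1*, *Rasgrf2* and *Cux2* passed the adjusted threshold in the higher direction (edgeR adjusted p = 0.0221, 0.0311, 0.0430 and 0.0481), where 3.70% of all genes tested did so and 11.0% in either direction. With WT replicate 2 left out as well, *Rorb* and *Tbr1* passed (edgeR adjusted p = 0.0320 and 0.0314), and 7.59% of all genes passed in either direction, while 10.9% were higher at an unadjusted p under 0.05. Leaving out both was chosen after the data had been seen. Without WT replicate 2 alone, none of the 9 passed, and 4 had an unadjusted p under 0.05 in the higher direction (*Rorb*, *Tbr1*, *Slc17a7* and *Rasgrf2*), as 7.37% of all genes did. Without *Tet2*-KO replicate 1 or without replicate 3, 3 genes did (*Rasgrf2*, *Rorb* and *Tbr1*), beside 7.86% and 8.11% of all genes. Over the 12 fits that left out 1 mouse, the log2 fold change lay between 0.21 and 0.30 for *Rorb*, 0.18 and 0.28 for *Rasgrf2*, 0.18 and 0.31 for *Cux2*, and 0.31 and 0.44 for *Tbr1*.

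**Figure D5:**
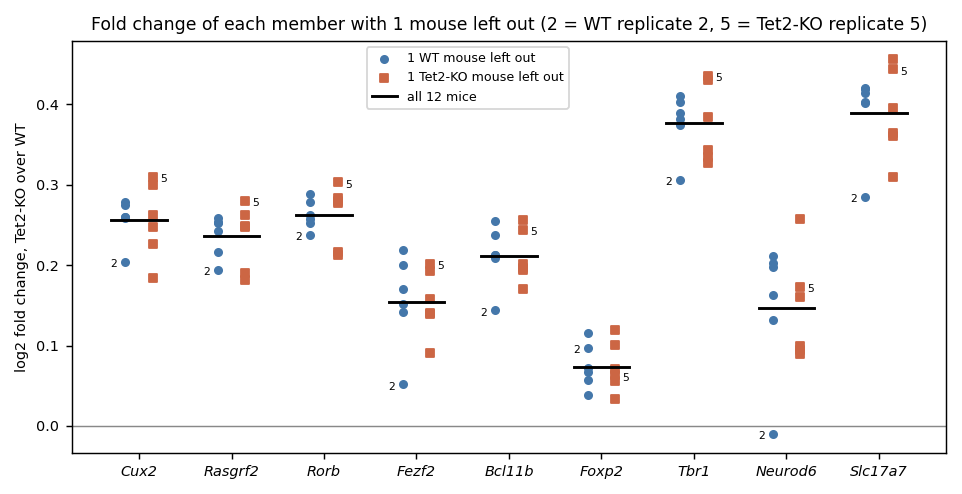
Log2 fold change of *Tet2*-KO over WT (vertical axis) of each of the 9 layer genes in the 12 fits that leave out 1 mouse, with circles where a WT mouse and squares where a *Tet2*-KO mouse was left out, and a line at the value with all 12 mice. Leaving out WT replicate 2 (marked 2) gave the lowest value for *Fezf2*, *Bcl11b*, *Tbr1*, *Neurod6* and *Slc17a7*, and *Neurod6* alone crossed 0, at -0.01.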

How the data were processed

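Brains of 12 mice at 14 d post-stroke were analysed, 6 transplanted with WT and 6 with *Tet2*-KO BM cells, grouped by their titles. The authors depleted ribosomal RNA, trimmed paired reads (Trimmomatic 0.36), aligned them with STAR 2.5.2b to mm10 and deposited, without normalization, the counts per gene of uniquely mapped reads in exons (featureCounts, Subread 1.5.2), with versions and build taken from the submitters' processing notes. Strand and annotation release are not given in the sources used here, and no exon of a layer gene overlaps one of another gene. The effect of a count restricted to uniquely mapped exonic reads is that reads shared by gene copies are lost.

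Identifiers were matched to GENCODE M21 (49056 of 49315 with a symbol, 141 of 141 listed symbols). Counts were filtered with filterByExpr, scaled with TMM and tested in R 4.3.3 with the robust quasi-likelihood F test of edgeR 4.0.16 on all 12 mice, calling genes at a Benjamini-Hochberg adjusted p under 0.05. Log2 CPM used a prior count of 2. The scripts were tested on simulated data, with fold changes larger than those of the layer genes. Alternatives were the DESeq2 1.42.0 Wald test, limma-voom (limma 3.58.1), other scalings, filters and prior counts, a replicate block and each mouse left out. The p-values measure the spread between these mice.

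The layer genes, the other lists and the tests were chosen with earlier results of these data known. Genes named are the 9 layer genes, *Tet2*, of each other list the 2 with the smallest p and the 2 most abundant, for each layer gene the 3 genes most like it, and others where a count of 5 or fewer fell on them. Promoters are those of RefSeq nearest the annotated start of each gene.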

Additional observations from a re-analysis of the deposited data

Results flagged for a closer look

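The lowest or highest mouse was checked by Dixon's ratio for the 9 layer genes and for upper minus deep, each in both groups. These were 20 groups of 6, of which chance would single out about 5%. In 4 of them a mouse lay far from the others, and in each it was WT replicate 2 as the lowest of the WT group. It was at 88.4 CPM for *Cux2*, where the next mouse was at 109 CPM, and at 65.6 CPM for *Tbr1*, where the next was at 86.3 CPM. For *Neurod6* it was at 19.9 CPM, against 43.6 CPM in the next mouse, and for *Slc17a7* at 381 CPM, against 634 CPM. As a share of the group's range the gap was 0.74 for *Cux2*, 0.66 for *Tbr1*, 0.658 for *Neurod6* and 0.863 for *Slc17a7*, with a limit of 0.625. The same mouse had the highest sum of lesion phagocyte markers (2850 CPM), and the part of these in its layer gene levels was not tested.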

How the results depend on the processing

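Of 189 fold changes of the 9 layer genes under alternatives, 188 kept their direction, the exception being *Neurod6* without WT replicate 2 (-0.01; 0.258 at most, without *Tet2*-KO replicate 4). No layer gene passed the adjusted threshold with all mice in edgeR, with other scalings or filters or with DESeq2 on all genes with a count. Of all genes, 0.0246% passed in the main edgeR fit and 2.39% with DESeq2 on all genes with a count. The DESeq2 Wald test on the filtered genes called 2 (*Rorb* and *Tbr1*), beside 7.22% of all genes. Limma-voom called 2 (*Rorb* and *Tbr1*), beside 9.92% of all genes. Leaving out WT replicate 2 and *Tet2*-KO replicate 5 together called 2, beside 7.59% of all genes. Leaving out 1 mouse, between 0 and 4 passed, the 4 without *Tet2*-KO replicate 5, where 11.0% of all genes passed. Between 3 and 6 had an unadjusted p under 0.05, the 3 without *Tet2*-KO replicate 1 or 3. Over all genes the number with one moved too, from 3130 without WT replicate 2 to 5744 without *Tet2*-KO replicate 5. The cause of these changes was not tested. The difference between groups in upper minus deep was 0.04 and turned to -0.027 with *Bcl11b* and *Foxp2* left out, to -0.022 with the wider layer lists and to -0.002 without WT replicate 4, and over single mice left out it lay between -0.002 and 0.058. The median difference relative to the pan-neuronal markers was -0.008 without *Tet2*-KO replicate 3 and at most 0.049 (without *Tet2*-KO replicate 4). Under upper quartile scaling, the median over all genes was 0.04 in place of 0.01.

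The titles number the mice and name no pairs. The deviations of same-numbered mice correlated between -0.169 and 0.229, and 3 of 12 mice correlated best with their own number. Such a check cannot exclude a pairing. With the replicate block, 0 layer genes passed the adjusted threshold and 5 had an unadjusted p under 0.05, *Bcl11b* no longer (unadjusted p = 0.0903 in the edgeR model fitted across all genes). Of all 20290 genes in that fit, 0 passed the adjusted threshold and 4329 had an unadjusted p under 0.05. With 214 to 17844 counts per layer gene and mouse, counting error is small beside the spread between mice.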
